A study of Homo sapiens with 4 samples.

Results

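The human kallikrein genes encode secreted serine proteases and lie side by side on chromosome 19. The 5 genes described here are KLK2, KLK3, KLK4, KLK15 and the pseudogene KLKP1, chosen by name as the androgen-regulated kallikreins of the prostate from the 60675 genes counted. KLK3 encodes prostate-specific antigen (PSA), the serum marker of prostate cancer, which cleaves the semenogelins of the seminal clot. KLK2 encodes a trypsin-like protease that can activate the PSA precursor, KLK4 and KLK15 encode further proteases of the prostate, and KLKP1 is transcribed but is annotated as a pseudogene. In luminal prostate cells transcription of these genes responds to androgen through enhancers that several transcription factors bind, and PSA mRNA is a standard readout of the androgen response.

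The RNA came from LNCaP, a human prostate cancer line that responds to androgen and was derived from a lymph node metastasis, kept in phenol red-free medium with hormone-depleted serum. All cells received 1 nM R1881, a synthetic androgen, for 72 h, either with the DMSO vehicle (2 libraries) or with 50 µM CPI-455 (2 libraries), an inhibitor of the KDM5 demethylases that remove methyl groups from lysine 4 of histone H3. Every library came from 1 cell line with androgen, so the comparison asks how the inhibitor altered transcript levels in the presence of androgen, and androgen induction itself is not analysed here. The sources describe biological replicates without saying what separated them, so the p-values measure the spread between these libraries, which may in part be technical.

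The vehicle libraries held 19623553 and 20690819 counts and the CPI-455 libraries 9522920 and 5401588, so levels were measured less precisely with CPI-455. LNCaP cells are luminal, and 4 luminal markers were read and all 4 passed the filter on low counts. Of these, 3 were lower with CPI-455: FOLH1, HOXB13 and KRT8 (by less than 2-fold in 3 alternative settings). Among all genes tested 21.3% were called lower. KRT18 was not called (log2 fold change -0.43). The summed level of the 4 markers was 226 to 230 CPM (counts scaled to library size) with vehicle against 100 to 115 CPM with CPI-455. The 3 basal markers reached at most 11 counts in any library and none was tested. In bulk RNA, fewer cells expressing a gene and less RNA per cell cannot be told apart. Of the enzymes that CPI-455 inhibits, KDM5B mRNA was lower (log2 fold change -1.07, adjusted p = 4.915e-05, below 2-fold in 3 of 15 alternative settings), KDM5A was higher by less than 2-fold (0.77, but 1.24 and called with a length and GC trend removed), and KDM5C had a log2 fold change of 0.03 that turned negative under other settings.

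The genes are contiguous on GRCh38 in the order KLK15, KLK3, KLK2, KLKP1 and KLK4. KLK15 spans chr19:50825289-50837213 on the minus strand and KLK3 spans chr19:50854915-50860764 on the plus strand. KLK2 spans chr19:50861568-50880567 on the plus strand, KLKP1 chr19:50882096-50896398 on the minus strand and KLK4 chr19:50906352-50910738 on the minus strand. The exons counted covered 2289 bases for KLK15, 4639 for KLK3, 6394 for KLK2, 1912 for KLKP1 and 1935 for KLK4. None of these exon bases was shared with another annotated gene on either strand, which matters because the counting left out fragments that touch several genes. A long noncoding RNA overlaps the span of KLK15 with 0 shared exon bases. KLK3 and KLK2 are close paralogs, yet of the 4492 windows of 50 bases in the KLK3 exons 11 (0.245%) also occurred in KLK2 exons, and these made up 0.182% of the 6051 windows of KLK2. KLK15 and KLKP1 had 0 windows repeated elsewhere on the chromosome, KLK2 had 1.34% and KLK4 had 4.73%. Fragments that align to several places were not counted.

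The promoters of KLK3 and KLK2 are shown because these neighbours responded differently, with KLK4 added as a gene whose promoter lacks the letters searched for. They are the 250 bases before the RefSeq start of each gene (GRCh38.p14), and RefSeq places the KLK2 start at 50873439, within the span used for counting. Capitals mark the androgen response element-like match, the GC box (GGGCGG) and the TATA box (TATAAA, here read on the opposite strand as TTTATA).
KLK3, chr19:50854665-50854914, plus strand: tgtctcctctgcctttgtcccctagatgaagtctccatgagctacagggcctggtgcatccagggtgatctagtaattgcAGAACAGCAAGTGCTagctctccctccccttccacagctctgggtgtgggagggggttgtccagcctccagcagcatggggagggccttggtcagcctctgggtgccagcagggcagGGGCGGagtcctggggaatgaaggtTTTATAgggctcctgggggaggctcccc
KLK2, chr19:50873189-50873438, plus strand: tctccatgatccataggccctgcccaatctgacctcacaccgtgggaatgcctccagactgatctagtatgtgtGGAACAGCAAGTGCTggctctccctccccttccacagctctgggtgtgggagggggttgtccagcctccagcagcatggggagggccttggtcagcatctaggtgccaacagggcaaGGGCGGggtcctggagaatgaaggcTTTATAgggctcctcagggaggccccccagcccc
KLK4, chr19:50910739-50910988, minus strand: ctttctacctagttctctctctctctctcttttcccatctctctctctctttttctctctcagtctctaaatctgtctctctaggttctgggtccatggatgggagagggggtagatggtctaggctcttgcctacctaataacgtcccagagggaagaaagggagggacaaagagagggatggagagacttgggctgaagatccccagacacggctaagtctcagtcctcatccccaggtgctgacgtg

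The KLK3 and KLK2 promoters were 80.2% identical, with 211 identical, 26 mismatched and 26 gapped positions in their alignment. Every other pair among the promoters of KLK2, KLK3, KLK4 and KLK15 was between 43.2% and 51.6% identical. The lowest value was between the windows at different RefSeq starts of KLK4, and between genes the lowest was 45.5%. Promoters of unrelated genes were not aligned for comparison. KLK3 held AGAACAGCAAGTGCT from 170 to 156 bases before its start, which departs from the androgen response element (AGAACA and TGTTCT separated by any 3 bases) by T10A and T13G, counted from 1 at the left end of the element. KLK2 held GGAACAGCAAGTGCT from 176 to 162 bases before its start, with A1G in addition to T10A and T13G. A match with at most 2 mismatches on either strand was present in 1.18% of 35116 RefSeq promoters of this length, and with at most 3 in 9.17%. Both promoters held a GC box, present in 42.6% of promoters, and a TATA box, present in 10.7%. The KLK4 window held none of these letters, and neither did the window at its second RefSeq start. A match in letters is a description and does not show binding.

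KLK3 and KLKP1 fell with CPI-455, by 3.15-fold and 3.56-fold, while their neighbours KLK2 and KLK4 were not called. The normalized levels of KLK2 and KLK4 were higher in both CPI-455 libraries. Levels are CPM normalized by TMM, a gene was called when its adjusted p (Benjamini-Hochberg, edgeR quasi-likelihood test over all genes tested) was below 0.05 and its change at least 2-fold, and fold changes are CPI-455 over vehicle. Of the 5 genes, 4 passed the filter on low counts and 2 of these were called lower, where 21.3% of the 17600 genes tested were called lower. None of the 4 was called higher, where 21% of all genes were. The median log2 fold change of the 4 genes was -0.60, beside -0.04 over all genes tested.

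KLK3 had 8530 and 7805 counts in the vehicle libraries and 954 and 684 in the CPI-455 libraries. In normalized terms these were 404 and 357 CPM with vehicle against 107 and 136 CPM with CPI-455. Both CPI-455 libraries lay below both vehicle libraries, as was so for 42.8% of all genes tested. The mean fell from 381 ± 32.9 CPM (SD, n = 2) to 121 ± 20.04 CPM (SD, n = 2), with a log2 fold change of -1.65 (SE 0.14, 95% interval -1.97 to -1.34, adjusted p = 9.927e-06). KLK3 was thus 3.15-fold lower with the inhibitor, and 2096 of the 17600 genes tested had a lower log2 fold change. Even so, KLK3 remained the most abundant of the 5 genes per kilobase of annotated exon in each CPI-455 library. In raw counts KLK2 stood slightly above it in CPI-455 replicate 1 (964 against 954).

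KLKP1, the pseudogene between KLK2 and KLK4, had 167 and 184 counts with vehicle against 21 and 11 with CPI-455. The corresponding levels were 7.91 and 8.43 CPM against 2.36 and 2.18 CPM. Both CPI-455 libraries lay below both vehicle libraries, as was so for 42.8% of all genes tested. Its log2 fold change was -1.83 (SE 0.34, 95% interval -2.60 to -1.06, adjusted p = 0.00127), a 3.56-fold lower level that rests on few counts in the CPI-455 libraries. KLKP1 lies on the opposite strand to KLK2 and KLK3.

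KLK2, whose counted span begins just downstream of KLK3, had 1779 and 1407 counts with vehicle against 964 and 562 with CPI-455. After normalization the levels were 84.2 and 64.4 CPM with vehicle against 108 and 111 CPM with CPI-455. Both CPI-455 libraries lay above both vehicle libraries. The groups did not overlap, in either direction, for 81.9% of all genes tested, and the CPI-455 libraries lay below for 42.8%. The log2 fold change was 0.56 (SE 0.15, 95% interval 0.23 to 0.90, adjusted p = 0.00833), a 1.48-fold higher level that passed the adjusted p and not the 2-fold threshold. By the adjusted p alone, 29.8% of all genes tested were higher and 32.8% lower. The adjusted p of KLK2 was 0.212 without vehicle replicate 2 and 0.0558 with library totals in place of TMM, and the log2 fold change was then 0.36 and 0.37.

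KLK4, a protease that can activate PSA and KLK2 precursors, had 546 and 445 counts with vehicle against 303 and 147 with CPI-455. The levels were 25.8 and 20.4 CPM with vehicle against 34.1 and 29.1 CPM with CPI-455, and the groups did not overlap, as was so for 81.9% of all genes tested. The log2 fold change was 0.46 (SE 0.19, 95% interval 0.04 to 0.88, adjusted p = 0.0565), which did not pass the test. It shrank to 0.03 when a trend on exon length and GC content was removed from each library. With library totals in place of TMM, it was 0.27 (adjusted p = 0.248) and the groups overlapped.

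KLK15 was barely detected, with 11 and 10 counts with vehicle against 0 in both CPI-455 libraries, and it did not pass the filter. Against a floor of 3 counts over the CPI-455 group it was at least 2.27-fold lower, and no p is given. This bound takes the vehicle level as measured, without its own counting error. On the same normalized scale a count of 0 allowed up to 0.337 and 0.595 CPM in CPI-455 replicates 1 and 2. The vehicle libraries, at 0.521 and 0.458 CPM, lay above the limit of replicate 1 and below that of replicate 2, where a difference was not detectable at this depth.

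**Figure D1:**
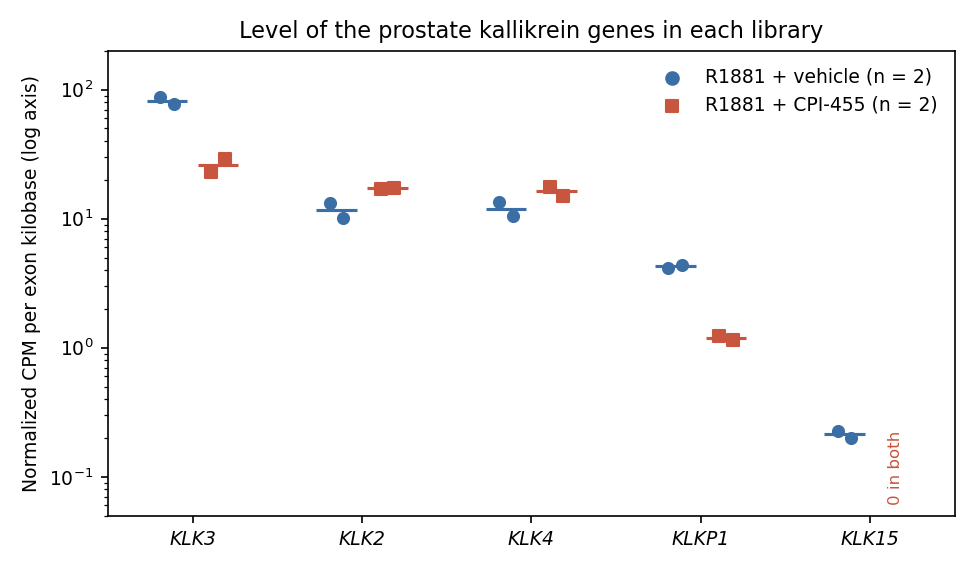
Normalized CPM per exon kilobase (log axis) of the 5 prostate kallikrein genes, with circles for the R1881 and vehicle libraries, squares for the R1881 and CPI-455 libraries and a line at each mean (n = 2). KLK3 dropped from 82.0 to 26.2 CPM per kilobase and KLKP1 from 4.27 to 1.19, whereas KLK2 and KLK4 lay slightly higher with CPI-455.

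Levels were ordered per exon length, which is the merged length of all annotated exons of a gene. For KLK3 these filled 4639 of the 5850 bases of its span. The transcripts present may use fewer of these bases, so the order and the shares per kilobase depend on the annotation. With vehicle, KLK3 stood at 82.0 ± 7.08 CPM per kilobase (SD, n = 2), above KLK4 at 11.9 ± 2.00 and KLK2 at 11.6 ± 2.19, and these last 2 genes did not differ beyond their spread. KLKP1 followed at 4.27 ± 0.192 and KLK15 at 0.214 ± 0.0194 CPM per kilobase. With CPI-455, KLK3 stood at 26.2 ± 4.32, KLK2 at 17.2 ± 0.335 and KLK4 at 16.3 ± 1.80 CPM per kilobase, again with KLK2 and KLK4 within their spread. KLKP1 was at 1.19 ± 0.0667 and KLK15 at 0.

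The 5 genes together fell from 487 ± 50.4 CPM to 265 ± 18.6 CPM (SD, n = 2 each), or 1.83-fold. KLK3 supplied 78.3 ± 1.36% of their counts with vehicle against 45.6 ± 4.36% with CPI-455. The share of KLK2 rose from 15.2 ± 1.30% to 41.5 ± 2.10%, and that of KLK4 from 4.73 ± 0.305% to 11.99 ± 2.15%. KLKP1 went from 1.69 ± 0.250% to 0.860 ± 0.108%. For each of these 4 shares the libraries of the groups did not overlap. In CPM, a different measure, the groups did not overlap for 81.9% of all genes tested. Shares must sum to a whole, so a lower KLK3 alone raises the others. Per exon kilobase the share of KLK3 was 74.6% with vehicle against 42.9% with CPI-455.

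**Figure D2:**
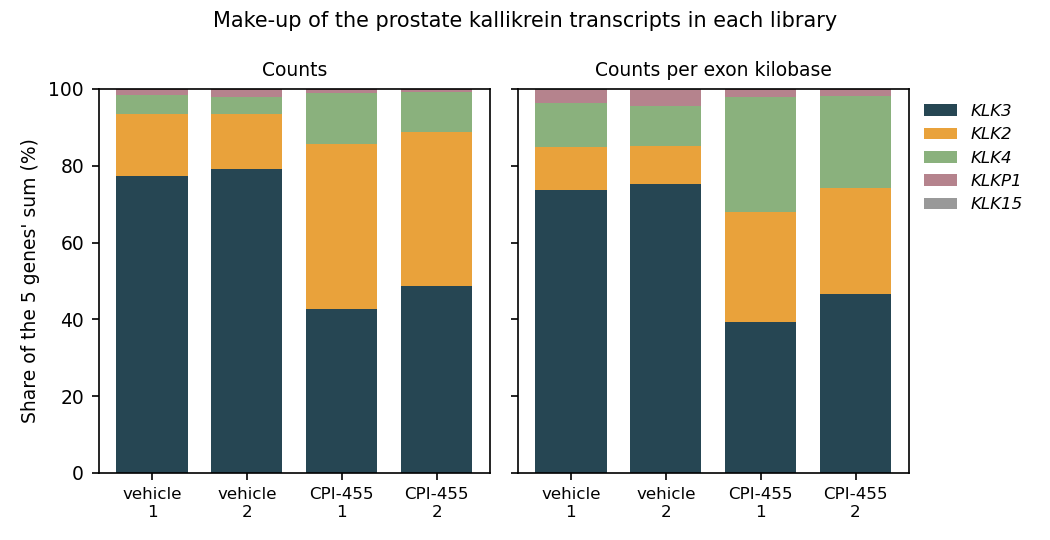
Share of each gene in the summed counts of the 5 prostate kallikrein genes (left) and in their counts per exon kilobase (right), in percent, for each of the 4 libraries. KLK3 made up 78.3% of the counts on average with vehicle against 45.6% with CPI-455, and the KLK2 share was larger in both CPI-455 libraries.

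Ratios of counts within a library do not depend on how libraries are scaled. There were 4.79 and 5.55 KLK3 counts per KLK2 count in the vehicle libraries and 0.990 and 1.22 in the CPI-455 libraries, a 4.70-fold shift. KLK3 to KLK4 moved likewise, from 15.6 and 17.5 to 3.15 and 4.65. In contrast, KLK2 to KLK4 was 3.26 and 3.16 with vehicle against 3.18 and 3.82 with CPI-455, and KLK3 to KLKP1 was 51.1 and 42.4 against 45.4 and 62.2, so in both pairs the groups overlapped. KLK2 to KLKP1 was 10.7 and 7.65 with vehicle against 45.9 and 51.1 with CPI-455, and KLK4 to KLKP1 was 3.27 and 2.42 against 14.4 and 13.4. Thus in raw counts KLK3 and KLKP1 formed one pair, and KLK2 and KLK4 another, with ratios that differed little between the groups. The KLKP1 ratios rest on 21 and 11 counts with CPI-455. Raw ratios are not corrected for exon length or GC content. With that trend removed, KLK2 and KLK4 parted, with log2 fold changes of 0.74 and 0.03. KLK3 and KLKP1 were then at -1.57 and -2.06. A two-sided exact permutation test over 2 against 2 libraries cannot go below p = 0.333, the value for the 4 ratios whose groups did not overlap. For the remaining 2 of the 6 ratios the exact permutation p was 0.667.

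The other kallikrein genes of the cluster were nearly silent. Of 11, 2 passed the filter and 5 had 0 counts in all libraries. KLK14 had 32 and 44 counts with vehicle against 48 and 16 with CPI-455, and was called higher (log2 fold change 1.31, SE 0.48, adjusted p = 0.0368). This call was lost in 9 of 15 alternative settings, with adjusted p of 0.342, 0.215 and 0.168 without vehicle replicate 1, vehicle replicate 2 and CPI-455 replicate 1, and a log2 fold change of 0.47 with the length and GC trend removed. KLK8, a protease of skin and brain, had 14 and 9 counts with vehicle against 11 and 0 with CPI-455 and was not called.

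Most of the neighbouring genes were below the filter or were not called. Of the 43 genes without a kallikrein symbol within 250 kb of the cluster, 9 were tested, 1 was called lower and 1 was called higher. Over all genes tested these shares were 21.3% and 21%. The median of the 9 log2 fold changes was 0.42. ACP4, which encodes a testicular acid phosphatase, was lower with 72 and 93 counts against 2 and 0 (adjusted p = 0.000732), a ratio of 26.8 with an exact 95% counting interval of 7.29 to 223. C19orf81 was called higher (log2 fold change 1.22, adjusted p = 0.0108), a call lost in 4 of 15 alternative settings. Its log2 fold change was 0.58 without CPI-455 replicate 1 and 0.21 with the length and GC trend removed, and its adjusted p was 0.0594 without vehicle replicate 2. The nearest tested genes outside the kallikreins on either side, TMEM277P and CTU1, which takes part in tRNA thiolation, were not called, with log2 fold changes of -0.68 and 0.42.

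**Figure D3:**
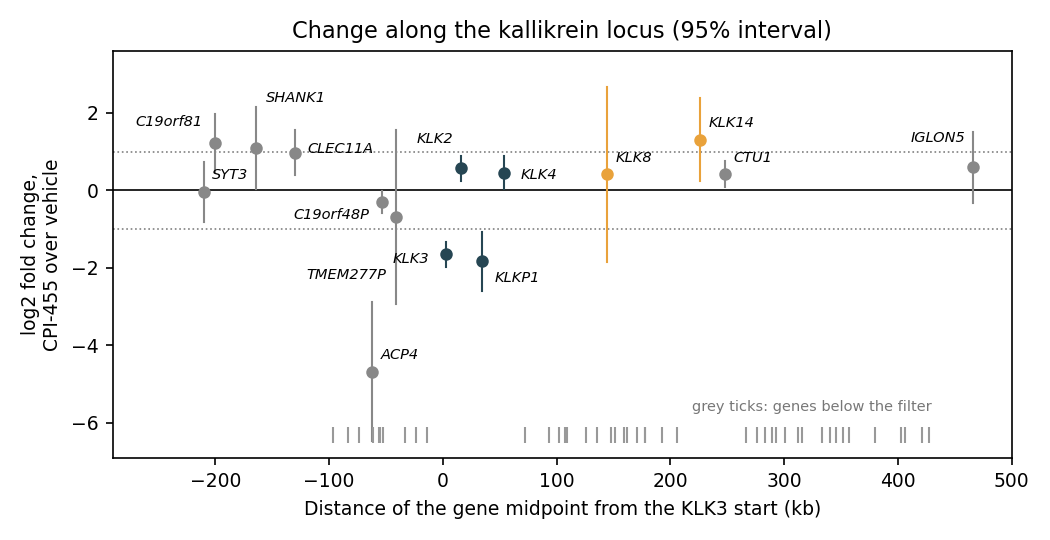
Log2 fold change (CPI-455 over vehicle, with 95% intervals) of the tested genes against the distance of each gene's midpoint from the KLK3 start in kb, with dark points for the prostate kallikreins, orange for other kallikreins and grey for neighbours. Grey ticks mark genes below the filter, dotted lines mark 2-fold, and KLK3 and KLKP1 alternate with KLK2 and KLK4 along the cluster.

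Of 4 transcription factors known at kallikrein enhancers, all passed the filter, 3 fell past the threshold and none rose, where 21.3% of all genes tested were called lower and 21% higher. The median of their log2 fold changes was -1.64. The pioneer factor FOXA1 had 1150 and 1198 counts with vehicle against 88 and 33 with CPI-455 (log2 fold change -2.69, SE 0.21, adjusted p = 5.748e-06). The homeobox factor HOXB13, also counted among the luminal markers, had 829 and 782 counts with vehicle against 75 and 53 with CPI-455 (-2.01, SE 0.20, adjusted p = 2.431e-05). The epithelial ETS factor SPDEF was lower as well (-1.28, adjusted p = 0.00168), and for each of the 3 genes both CPI-455 libraries lay below both vehicle libraries, as was so for 42.8% of all genes tested. GATA2, another pioneer factor, had a log2 fold change of -0.40 (adjusted p = 0.0499) and was not called. Whether these factors had a part in the levels of the kallikreins was not tested.

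Genes encoding known kallikrein substrates went both ways: of 9, 7 were tested, 4 fell and 2 rose, beside 21.3% and 21% of all genes tested, and their log2 fold changes had a median of -1.40. F2RL1, a protease-activated receptor, was lower (log2 fold change -1.70), as was fibronectin, FN1 (-1.40). TGFB2, a growth factor with a latent precursor, was lower on few counts (-2.79, adjusted p = 0.0207). IGFBP3, which binds insulin-like growth factors, had 25 and 23 counts with vehicle against 0 in both CPI-455 libraries. Against a floor of 3 counts over the CPI-455 group it was at least 5.19-fold lower, with the vehicle level again taken as measured. PLAUR, the urokinase receptor, was higher with 152 and 135 counts against 320 and 178 (log2 fold change 2.41, adjusted p = 8.419e-06), and urokinase, PLAU, was higher by 2.16 on the log2 scale. Without either vehicle library the adjusted p rose to 0.116 and 0.102 for IGFBP3, 0.0820 and 0.207 for PLAU, and 0.169 and 0.256 for TGFB2, so these 3 calls were lost. TGFB2 also lost its call with DESeq2 (adjusted p = 0.0844) and with the length and GC trend removed in the blocked fit (0.0704), and its fitted log2 fold change was -7.97 without CPI-455 replicate 1, which left its CPI-455 count at 0. PTHLH was not called (0.64). The semenogelin genes SEMG1 and SEMG2, the main seminal substrates of PSA, had 0 counts in all libraries.

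Of 7 kallikrein inhibitor genes, 1 passed the filter. SPINK5, whose product LEKTI inhibits skin kallikreins, had 61 and 66 counts with vehicle against 187 and 66 with CPI-455, and was higher (log2 fold change 2.55, SE 0.31, adjusted p = 9.224e-05). Among 3 genes of other prostate secretory proteins, ACP3, prostatic acid phosphatase, was tested, and fell from 165 and 218 counts to 4 in both CPI-455 libraries (log2 fold change -3.92, SE 0.47, adjusted p = 7.781e-05).

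**Figure D4:**
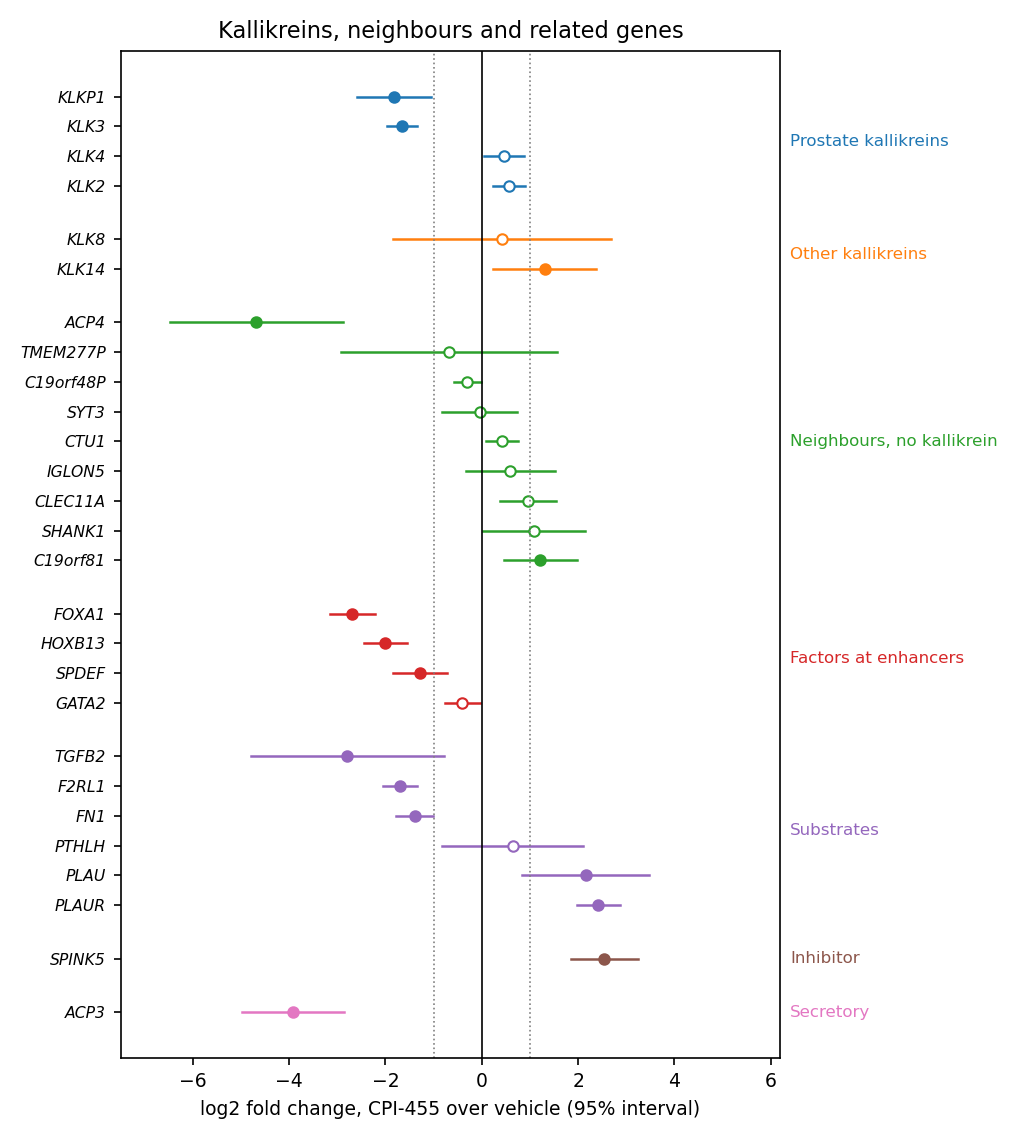
Log2 fold change (CPI-455 over vehicle, horizontal axis) with 95% intervals for tested genes, grouped by role, with filled points for called genes and open points for genes not called. IGFBP3, at 0 counts in both CPI-455 libraries, is left out, and dotted lines mark 2-fold. KLK3 and KLKP1 lie to the left of 0, while KLK2 and KLK4 lie to the right.

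Other cell types were checked with 5 marker genes, of which 3 were tested: the neuroendocrine gene CHGA was lower (log2 fold change -1.32), the fibroblast gene COL1A1 was higher (1.00) and the neuroendocrine gene SYP was not called (0.69). The calls on CHGA and COL1A1 were lost in 4 and 7 of 15 alternative settings, among them those without vehicle replicate 1 (adjusted p = 0.131 and 0.112), vehicle replicate 2 (0.207 and 0.253) and CPI-455 replicate 1 (log2 fold change -0.93 and 0.76). Their summed level was 14.8 to 15.6 CPM with vehicle against 16.9 to 21.6 CPM with CPI-455, and their part in the kallikrein levels was not tested.

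The genes most like KLK3 and KLK2 were found by the root mean square difference of log2 CPM, each gene centred on its mean over the 4 libraries, among 6968 genes whose mean log2 CPM reached 5. For KLK3 they were NEO1 (0.0300), CCNT1 (0.0312), TLNRD1 (0.0321), FBXO45 (0.0403) and PDP1 (0.0460), with log2 fold changes between -1.75 and -1.61. For KLK2 they were MORC2 (0.0362), PDRG1 (0.0577), MTCL1 (0.0597), SMIM10L1 (0.0640) and IFFO1 (0.0658), with log2 fold changes between 0.47 and 0.64. With 2 groups of 2 libraries, likeness mostly ranks genes by their fold change, and none of the 10 genes lies on chromosome 19.

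**Figure D5:**
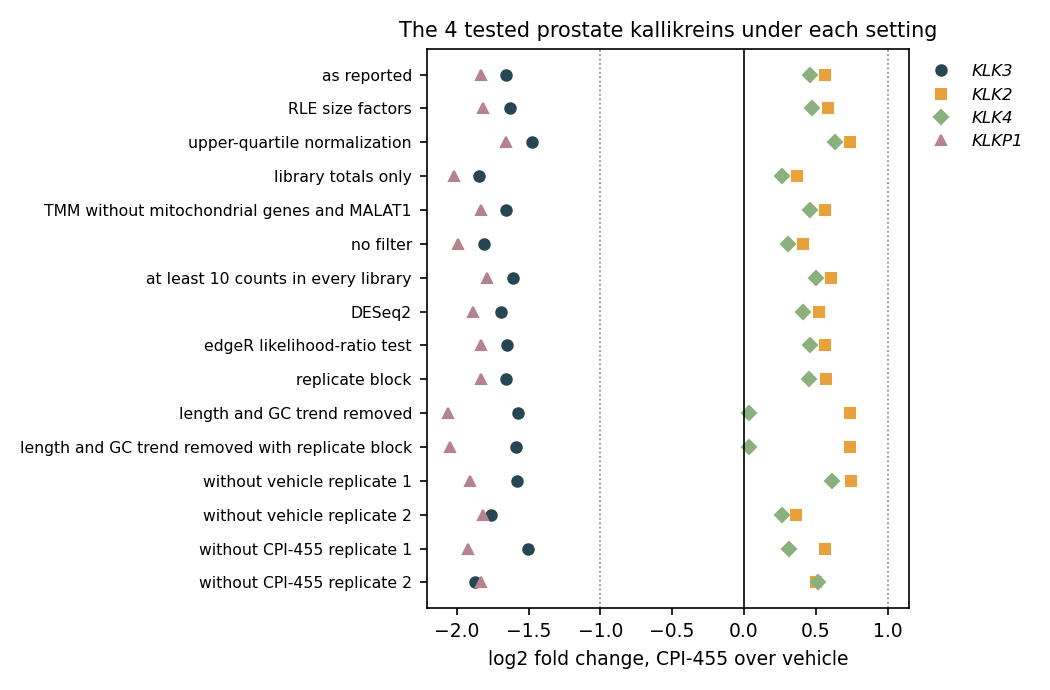
Log2 fold change (CPI-455 over vehicle, horizontal axis) of KLK3, KLK2, KLK4 and KLKP1 as reported and under each of 15 alternative settings (rows), with dotted lines at 2-fold. KLK3 and KLKP1 stayed beyond 2-fold lower and KLK2 and KLK4 stayed above 0 and within 2-fold in every setting shown.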

How the data were processed

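LNCaP libraries of 2 groups of 2 were analysed, grouped by the treatment in the sample labels. The authors trimmed reads with TrimGalore and used STAR for alignment to GRCh38. Fragments on exons were assigned to the genes of Ensembl release 83 by featureCounts (v1.5.0-p1). The values deposited per gene are raw counts that were not normalized. Per the file headers, counting ignored strand and left out fragments that align to several places or touch several genes. The DMSO concentration of the vehicle differs between the labels and the methods and is not given here.

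Symbols were matched for 56558 of 60675 genes. Genes were filtered with filterByExpr (minimum 10 counts), library sizes corrected by TMM factors (vehicle 1.08 and 1.06, CPI-455 0.936 and 0.936), and the groups compared with glmQLFit and glmQLFTest in edgeR 4.0.16 (R 4.3.3), without covariates. Adjusted p-values are Benjamini-Hochberg over all 17600 genes tested, and the SE was taken from the test's F statistic. Alternatives were other normalizations, filters, tests (DESeq2 1.42.0), a replicate block, removal of a length and GC trend over exons (mgcv 1.9.3), stricter or looser calls and leaving out each library. The KLK3 to KLK2 ratio as a summary, and that ratio and the KLK3 share without each library, were added after seeing the data. The floor of 3 counts equals 0.137 to 0.142 normalized CPM in vehicle libraries and 0.337 to 0.595 in CPI-455 libraries. Intervals on counts and floors allow for counting error alone, because amplified fragments lack molecular identifiers and need not come from separate molecules.

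The genes described and all gene lists were chosen with earlier results of these data known. Named were the 5 genes, the tested genes of lists by role (kallikreins, substrates, inhibitors, enhancer factors, secretory proteins, KDM5 targets of the inhibitor), the nearest tested and the called neighbours within 250 kb, and the 5 genes most like KLK3 and KLK2. Promoter sequences are from RefSeq (GRCh38.p14). They were matched for 4 of the 5 genes, and KLKP1 had no entry. Marker genes of luminal, basal and other cells were also read. Some genes are not reported here. The qPCR, protein and splicing experiments were not analysed here.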

Additional observations from a re-analysis of the deposited data

How the results depend on the processing

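The calls on KLK3, KLKP1, KLK2 and KLK4 were the same in all 15 alternative fits, and 2 of the genes were called lower in each. The log2 fold change of KLK3 ran from -1.84 to -1.48 across the other normalizations, filters and tests and from -1.87 to -1.51 without each library in turn. KLKP1 ran from -2.06 to -1.66 and from -1.92 to -1.82, KLK2 from 0.37 to 0.74 and from 0.36 to 0.75, and KLK4 from 0.03 to 0.63 and from 0.27 to 0.61. The adjusted p was below 0.05 for KLK2 in 13 of 15 alternatives and for KLK4 in 5 of 15. The settings moved the median log2 fold change of all genes from -0.04 to between -0.23 (library totals) and 0.14 (upper quartile) over the same genes, and under these 2 rescalings the log2 fold changes of the 4 kallikreins moved in the same direction. The share called higher among all called genes was 49.6%, 58.1% with the upper quartile and 40.7% with library totals, and the genes called were 7454, from 5577 to 8597 without each library. KLK15 entered the test in 4 settings, lay between -6.11 and -5.99 where 1 library was left out, and was called lower without CPI-455 replicate 2 (adjusted p = 0.0436 by edgeR), a fitted value that depends on the prior count. Where a library was left out, the lone library was assumed to vary like those of the other group.

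The labels number replicates 1 and 2 in both groups without saying that equal numbers belong together, and deviations of same-numbered libraries correlated at 0.04, so they were not taken as pairs. With a replicate block 7167 genes were called, and KLK3 was at -1.66, KLK2 at 0.57, KLKP1 at -1.83 and KLK4 at 0.45, with no change of call.

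Among the named genes, directions turned for 3 that were not called, and the cause was not tested. Tested neighbours that were neither called nor nearest were not compared across settings. KDM5C was at -0.16 with library totals, -0.12 without a filter, -0.010 with DESeq2, and between -0.12 and 0.11 without each library. KLK8 was at -0.10 with the replicate block, -0.047 with the length and GC trend removed, -0.53 with both, and between -6.12 and 1.15 without each library, the lowest without CPI-455 replicate 1. TMEM277P lay between -7.35 and 0.13 without each library, and was called lower without CPI-455 replicate 1, which left its CPI-455 count at 0.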
